A study of Arabidopsis thaliana with 4 samples.

Results

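Acetylated histone H3 (H3ac) was compared between callus and leaf of Arabidopsis thaliana by chromatin immunoprecipitation sequencing, which recovers the DNA bound by histones carrying a mark. The regions described here are all H3ac regions on nuclear chromosomes 1 to 5, 20185 of the 38828 regions merged in the series for H3ac and trimethylated H3 lysine 4 (H3K4me3). Each was classed by the library in which it was called: callus alone, leaf alone or both. Both tissues were wild-type Col-0. The leaf sample was mature rosette leaf, named in the protocol as the parental leaves with no age apart from that of the seedlings. The callus sample grew from leaf explants of seedlings aged 2 weeks during 15 days on callus-inducing medium (CIM). The seedling age recorded for the leaf sample is also 2 weeks. The labels give no treatment for either sample. Tissue, time and medium therefore differ together and cannot be told apart. Each tissue and mark has 1 library, so every difference below is between libraries, has no replicate check and carries no p-value. No input library was used.

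Lysines near the end of histone H3 are acetylated by histone acetyltransferases and cleared by histone deacetylases. Acetylation loosens the contact between histones and DNA, and in plants it is found mainly at the starts of genes that are in use, often beside H3K4me3. Callus made on auxin-rich medium is an unorganised, dividing tissue that is known to use much of the gene programme of lateral root formation. The antibody used binds acetylated H3 without separating the acetylated lysines.

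Depth and scale come first, because they bear on every class below. Values of tags in the authors' deposited table lay on steps of 0.3652 for callus and 0.5 for leaf, so the callus library was 1.369 times as deep as that of leaf. The total depth is unknown. Callus tags in the authors' deposited table are already scaled to the leaf depth, and tags were counted in a nucleosome-sized window at the centre of a region. Intervals in brackets are exact 95% intervals (conditional, Clopper-Pearson form) that cover counting error only, and they do not allow for the choice of regions by a high fold. In whole tissue, a mark on more cells and more mark per cell cannot be told apart.

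Most acetylated regions were shared by the tissues. Of the 20185 regions, 15687 (77.7%) were called in both libraries, 2855 (14.1%) in callus alone and 1643 (8.14%) in leaf alone. The callus library was also the deeper one, and the part of depth in the larger callus class was not tested. The shares were alike on all chromosomes, where 13.2% to 15.2% of regions were called in callus alone and 7.42% to 9.11% in leaf alone. They were also alike in the gene-poor parts of the chromosomes when these were pooled. In the 24 megabase bins with under 150 protein-coding genes, 13.9% (11.8 to 16.2) of 1001 regions were called in callus alone, against 14.2% (13.7 to 14.7) of 19184 regions elsewhere. Single gene-poor bins held few regions and varied. Megabase 15 of chromosome 1 had 9 of 17 regions in callus alone, and megabase 5 of chromosome 2 had 0 of 18.

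Regions called in 1 library were short. Their median length was 233 bp in callus alone and 231 bp in leaf alone, against 836 bp in both. The shortest length the files hold, 150 bp, was that of 30.6% of the callus-alone and 31.7% of the leaf-alone regions, and of none called in both. Length of 1000 bp or more was reached by 109 callus-alone, 33 leaf-alone and 4994 shared regions. The 2 classes called in a single library were alike in median length, while 3.82% of callus-alone and 2.01% of leaf-alone regions reached 1000 bp.

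**Figure D1:**
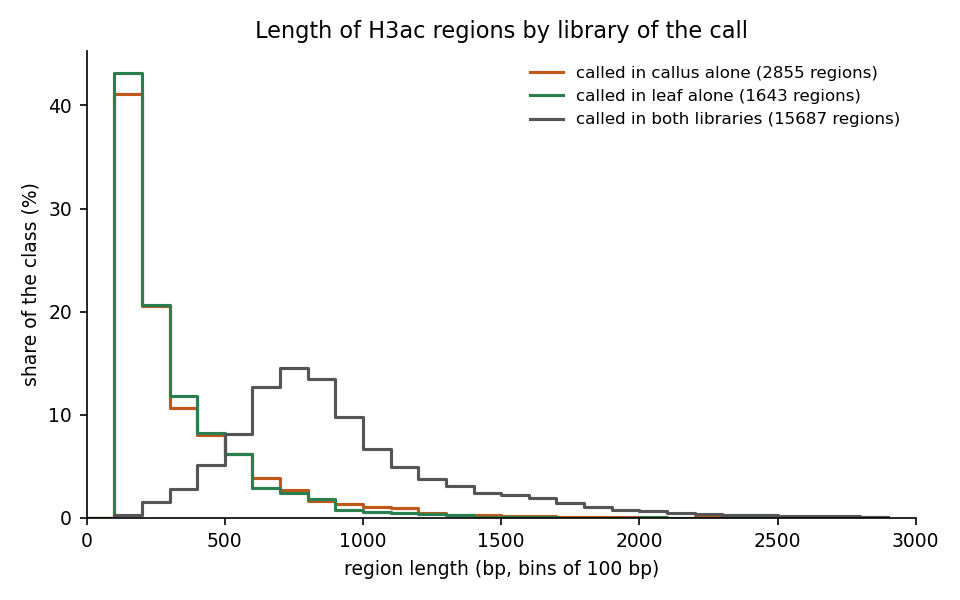
Length of H3ac regions in bp (horizontal axis, bins of 100 bp, up to 3000 bp) against the share of each class in percent (vertical axis), with 1 line per class. The lines for callus alone (2855 regions) and leaf alone (1643) peak at the shortest lengths, and that for both libraries (15687) peaks between 700 and 800 bp.

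The authors' deposited table lists 1540 nuclear regions as higher in callus, which is 7.63% of all 20185. The authors listed a region where callus had at least 2-fold more tags with a Poisson p-value of at most 0.01. No list of regions higher in leaf was used here, so leaf is described by its own calls, which carry no fold. Listed regions were 47.8% of those called in callus alone (1366 of 2855) and 1.11% of those called in both (174 of 15687). A callus-alone call therefore did not by itself mean a listed difference. Of callus-alone regions of 150 bp, 37.1% were listed, and the share rose with length to 44.3% for longer ones under 500 bp, 69.6% from 500 bp to under 1000 bp and 89.9% for 1000 bp or more. By the score deposited with the region, the 714 highest regions had 73.8% listed and the 757 lowest 37.5%.

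The listed differences were mostly small and rested on few tags. In the authors' deposited table the median listed region had 36.2 scaled callus tags and 12 leaf tags, and the median fold was 2.87. Regions called in callus alone had a median of 34.3 callus and 11.5 leaf tags and 2.96-fold in the authors' deposited table. Those called in both had 69.8 and 28 tags and 2.33-fold, with a largest fold of 5.2, in the authors' deposited table. A fold of 4 or more was given to 374 regions in the authors' deposited table, 1.85% of all 20185, and 363 of these were called in callus alone. A fold of 10 or more was given to 48, all of them called in callus alone. Class and fold both rest on the leaf reads, so these contrasts between classes are partly built in. At the edge of the list, just inside the 2-fold threshold, a region with 31 callus and 15.5 leaf tags in the authors' deposited table had an interval of 1.08 to 3.81. The interval lay above 1 in 1534 of the 1540 regions, above 2 in 381 and above 4 in 34. The list was chosen by fold and Poisson p-value on the same tags, so an interval above 1 was largely built in.

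**Figure D2:**
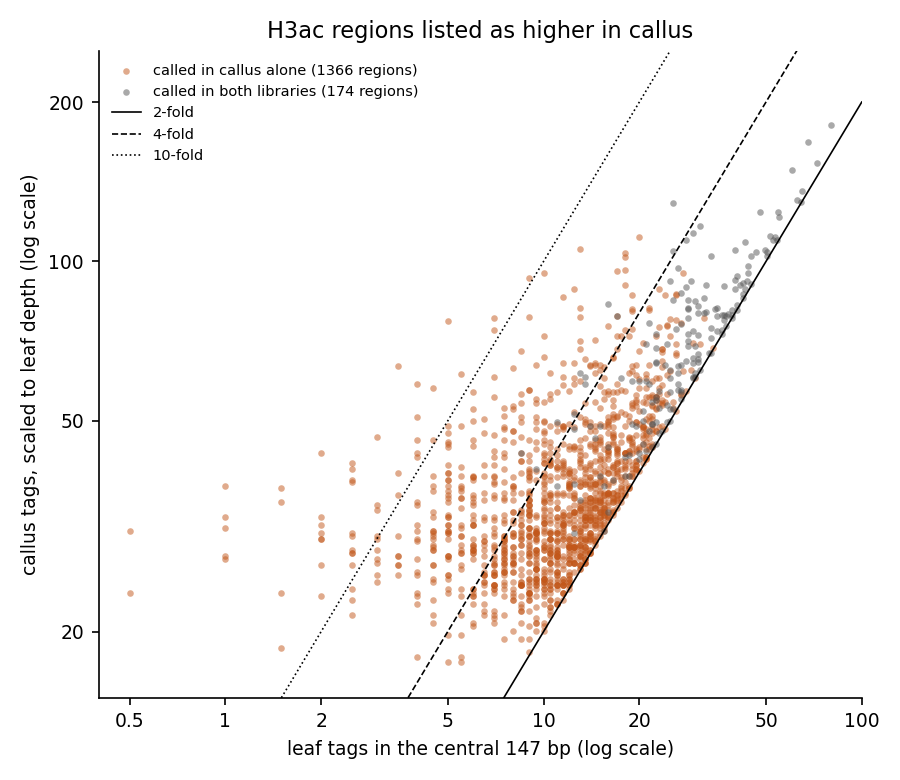
Leaf tags (horizontal axis) against callus tags scaled to the leaf depth (vertical axis), both on log scales, for the 1540 H3ac regions in the authors' deposited table, with lines at 2-fold, 4-fold and 10-fold. Regions called in callus alone (1366) spread to low leaf tags, while the 174 called in both lie close to the 2-fold line with more tags in each library.

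Shared regions lay in genes more often than those called in 1 library. Position was read from the counted window against protein-coding genes. Of shared regions that were not listed, 93.0% lay in a gene body, 2.2% within 500 bp of a gene and 4.83% farther away. Listed callus-alone regions had 62.3% (59.7 to 64.9) in a gene body, 10.8% within 500 bp and 26.9% (24.5 to 29.3) farther away. Unlisted callus-alone regions were placed much the same, with 60.3% in bodies and 26.1% far. Leaf-alone regions had 72.7% (70.4 to 74.8) in bodies and 18% (16.1 to 19.9) far. Position relative to the start of a gene was not analysed here, since the gene table has no strand.

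Many regions called in 1 library lay beside a region of another class. A region of another class began within 500 bp for 35.5% (33.0 to 38) of the unlisted callus-alone regions and for 29.2% (27 to 31.5) of the leaf-alone regions. Listed callus-alone regions had such a neighbour in 15.3% (13.4 to 17.3). The listed regions thus stood apart from other classes more often than the unlisted ones.

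Regions away from protein-coding genes were examined by their nearest gene. For 92 of the 367 listed callus-alone regions lying farther than 500 bp from any protein-coding gene (25.1%, 20.7 to 29.8), the nearest gene was itself listed as higher. Listed genes make up 3.96% of all protein-coding genes. The same share was 11.1% (8.14 to 14.6) for unlisted callus-alone, 4.93% (3.5 to 6.74) for shared unlisted and 3.05% (1.4 to 5.71) for leaf-alone regions far from genes. Among these 92 regions the largest fold was next to AT3G48510, at chr3:17971062-17971613 (TAIR10), with 50.8 scaled callus and 4 leaf tags and 12.69-fold (4.78 to 48.2) in the authors' deposited table. A pair of regions lay next to PLT3 (AIL6 in the gene table), whose AINTEGUMENTA-like transcription factor acts in root and shoot stem cells. In the authors' deposited table the region at chr5:3312328-3312639 (TAIR10) had 39.8 scaled callus and 3.5 leaf tags, an 11.37-fold difference (3.92 to 48.3), 2845 bp from the gene. A second one, at chr5:3313311-3313680, had 47.5 and 6.5 tags and 7.3-fold (3.27 to 19.7) in the authors' deposited table, 1833 bp from the gene. Near the jasmonate-oxidising P450 gene CYP94B3 the region at chr3:17973785-17973935 had 29.9 and 3 tags and 9.98-fold (3.18 to 50.4) in the authors' deposited table. Near the pyruvate decarboxylase gene PDC1 (AT4G33070) the region at chr4:15955717-15955867 had 25.6 and 3.5 tags and 7.3-fold (2.47 to 31.8) in the authors' deposited table. These genes also had a listed region of their own in or within 500 bp of the gene body. Another annotated gene lay under 7.9% of the listed callus-alone, 16.9% of the leaf-alone and 40.9% of the shared unlisted far regions.

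At the level of genes, 16689 of 27444 protein-coding genes (60.8%) had an H3ac region in the body or, failing that, within 500 bp. Of these, 1087 (6.51%) had a region listed as higher in callus, 285 (1.71%) at 4-fold or more, and 735 (4.4%) had regions called in leaf alone and no others. These percentages are the background for the gene groups below. Of the 55 gene lists, 41 had a listed share above 6.51%, and 28 of these also stood above 1.71% at 4-fold or more. The 41 include shares close to that of all genes, such as 7.89% for the cell cycle list. They also include a list with only 2 acetylated genes, and no list was tested against the background. Genes with regions in callus alone numbered 1178, and 666 of them (56.5%) were listed, with a median of 3.25-fold in the authors' deposited table. A further 668 genes had both a shared and a callus-alone region, and 256 of these (38.3%) were listed, with a median of 2.69-fold in the authors' deposited table. Genes with shared regions only numbered 13565, and 144 (1.06%) were listed. A region lay on more than 1 gene in 462 of 18372 cases, and its value was then given to each.

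The largest folds on at least the median number of callus tags belonged to genes of varied function. The naming rule took the 20 protein-coding genes with the largest fold among regions with 36.2 or more callus tags. First came AT5G53990, with 37.6 scaled callus tags and 1 leaf tag in the authors' deposited table, 37.62-fold with a lower bound of 6.39. FTM1, a stearoyl desaturase gene linked to the floral transition at the shoot meristem, had 37.3 and 1.5 tags and 24.83-fold in the authors' deposited table (5.53 to 353). Its region, chr1:16577749-16579379, was 1630 bp long and thus among the longest callus-alone regions. AT4G01270 had 43.5 and 2 tags and 21.73-fold in the authors' deposited table (5.81 to 185), and its counted bases lay outside the gene, within 500 bp. The other 17 ran from 9.79-fold to 18.16-fold in the authors' deposited table, and all 20 were called in callus alone.

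Among these 17, hormone genes and regulators stood beside genes with no assigned function here. GH3.3, whose enzyme conjugates auxin to amino acids, had 46.7 scaled callus and 3 leaf tags in the authors' deposited table, 15.58-fold (5.1 to 77.5). ABCG35, a transporter of the pleiotropic drug resistance type, had 58.8 and 4 tags and 14.7-fold (5.56 to 55.6) in the authors' deposited table. OFP7, an ovate family protein gene, had 57.7 and 4.5 tags and 12.82-fold in the authors' deposited table (5.06 to 43.9). The leaf library was low at each of these genes, so the upper bounds are loose. SRO4, of the RCD1-like family, had 46 and 4.5 tags and 10.23-fold (3.99 to 35.2) in the authors' deposited table. IQD15 (iqd15 in the gene table), which encodes a calmodulin-binding IQ-domain protein, had 48.9 and 5 tags and 9.79-fold (3.99 to 31.1) in the authors' deposited table. AT4G39720 had the most callus tags of the 20, 93.1 against 9 in leaf, and 10.35-fold (5.26 to 23.1) in the authors' deposited table.

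Genes of the low-oxygen response had the largest share listed among lists with 15 or more acetylated genes. Of 17 genes on that list, 16 had an H3ac region and 9 (56.2%) were listed, with a median of 3.82-fold against 2.87-fold over all listed genes in the authors' deposited table. None was called in leaf alone. The list includes enzymes of fermentation and sucrose breakdown, oxygen-sensing enzymes and regulators. LBD40, a transcription factor gene, led with 74.1 scaled callus and 7 leaf tags, 10.59-fold (4.93 to 26.9), in the authors' deposited table. SUS4 and SUS1, sucrose synthase genes, had 24.1 and 2.5 tags (9.64-fold, 2.77 to 60.7) and 56.6 and 15.5 tags (3.65-fold, 2.08 to 6.73) in the authors' deposited table. ADH1, the alcohol dehydrogenase of ethanol fermentation, had 74.1 and 18 tags and 4.12-fold (2.47 to 7.19) in the authors' deposited table. PDC1 (AT4G33070), which feeds ADH1 with acetaldehyde, had 42 and 11 tags and 3.82-fold in the authors' deposited table (2.0 to 8.14).

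The oxygen sensors followed. PCO2 and PCO1 (AT5G39890 and AT5G15120), plant cysteine oxidases that mark ERF-VII transcription factors for destruction when oxygen is present, had 4.36-fold (2.45 to 8.47) and 3.76-fold (2.55 to 5.73) in the authors' deposited table. PCO1 had the highest tags of the list, 116.5 scaled callus tags against 31 in leaf in the authors' deposited table. ETR2, an ethylene receptor gene, had 111.8 and 51.5 tags and 2.17-fold (1.57 to 3.04) in the authors' deposited table. HRA1 (AT3G10040), which restrains the ERF-VII factor RAP2.12, had 102.6 and 50.5 tags and 2.03-fold (1.46 to 2.85) in the authors' deposited table. Both of the last stood just above the 2-fold threshold, on regions called in both libraries. LBD41, HB1, SRO5, PDC2 and the other 3 acetylated members of the list were not listed. At 4-fold or more, 4 of the 16 remained, beside 1.71% of all genes.

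AT-hook (AHL) genes, which encode nuclear proteins that bind AT-rich DNA and restrain growth, were acetylated in 25 of 26 cases, and 11 of the 25 (44.0%) were listed. In the authors' deposited table their median was 5.2-fold and 7 reached 4-fold. No AT-hook gene was called in leaf alone. AHL19 led with 63.5 scaled callus and 3.5 leaf tags, 18.16-fold (6.45 to 76.8), in the authors' deposited table. AHL22 had 56.6 and 6 tags and 9.43-fold (4.12 to 26.3), and AHL18 27 and 3 tags and 9.01-fold (2.85 to 45.7), in the authors' deposited table. SOB3 (AHL29) and ESC (AHL27), regulators of hypocotyl growth, had 78.5 and 9 tags (8.72-fold, 4.41 to 19.5) and 92 and 29 tags (3.17-fold, 2.11 to 4.93) in the authors' deposited table. AHL20 had 103.7 and 18 tags and 5.76-fold in the authors' deposited table (3.52 to 10.0). The listed members thus ranged from genes nearly without leaf tags to genes well marked in leaf, and the unlisted acetylated members all had regions called in both libraries. AGF1 (AHL25), which binds a gibberellin biosynthesis promoter, was not caught by the symbol pattern of the list, and had 77.1 and 5 tags and 15.41-fold (6.43 to 48.7) in the authors' deposited table.

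**Figure D3:**
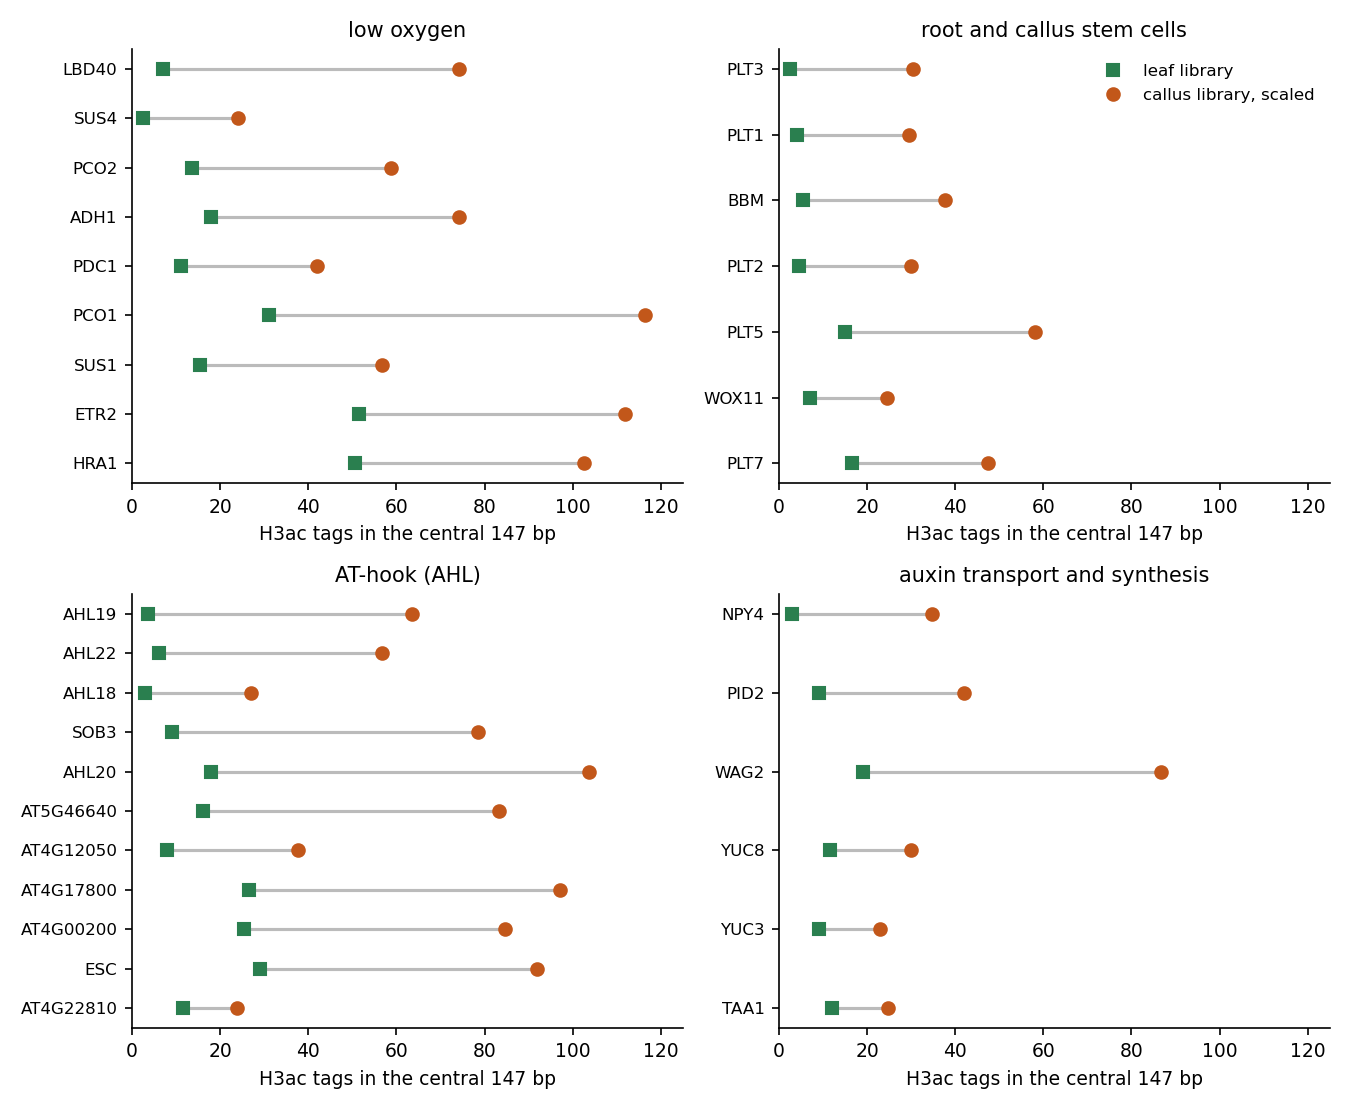
H3ac tags in the central window (horizontal axes) of the listed members of 4 gene lists, with leaf as squares and callus, scaled to the leaf depth, as circles, 1 library each, from the authors' deposited table. The auxin panel leaves out 1 listed gene. Genes are ordered by fold from the top, and leaf tags run from 2.5 to 51.5 in the low-oxygen list and from 2.5 to 16.5 in the stem cell list.

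Root and callus stem cell genes had 7 of 17 acetylated members listed (41.2%), with a median of 6.65-fold in the authors' deposited table. PLETHORA genes specify the root stem cell niche and give callus its competence to regenerate. PLT3, PLT1 and PLT2 had 30.3, 29.6 and 29.9 scaled callus tags and 2.5, 4 and 4.5 leaf tags in the authors' deposited table. Each of these regions was short, from 150 to 188 bp, and their folds of 12.12 (3.5 to 74.8), 7.4 (2.71 to 28.8) and 6.65 (2.53 to 23.3) in the authors' deposited table rest on few leaf tags. PLT5 and PLT7 (AIL5 and AIL7 in the gene table) had broader regions, of 1051 and 690 bp, more leaf tags (15 and 16.5) and folds of 3.87 (2.23 to 7.28) and 2.88 (1.66 to 5.28) in the authors' deposited table. BBM, an inducer of somatic embryos, had 37.6 and 5.5 tags over a region of 822 bp and 6.84-fold (2.82 to 20.4) in the authors' deposited table. WOX11, which starts root founder cells, had 24.5 and 7 tags and 3.5-fold (1.55 to 9.48) in the authors' deposited table. LBD18, SHR and WOX1 had regions called in callus alone that were not listed. WOX5, LBD16 and LBD29 had no H3ac region, and ANT, an organ growth regulator related to PLETHORA genes, had its region called in leaf alone.

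Markers of cell types were read from the same H3ac calls, so they give no independent check of the tissue labels. Of 12 callus and root stem cell markers, 8 had an H3ac region, 7 of them listed as higher in callus and none called in leaf alone. These 7 are the listed stem cell genes named above, and ANT was not among the 12 markers. Genes of light harvesting, photosystems and carbon fixation, the markers of mature leaf, are described below. Defining markers of leaf cell types were mostly without any H3ac region. Of 5 stomatal markers, SPCH, MUTE, FAMA and EPF1 had none and EPF2 had a shared and a leaf-alone region. Of 4 xylem markers CESA4 had a shared region, and of 3 trichome markers GL3 had one. The phloem markers APL and SUC2 had none. No marker of these 4 cell types was listed as higher in callus or had all its regions called in leaf alone.

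Some auxin genes were listed at each step from synthesis to response, while most acetylated auxin genes were not listed. Of 23 acetylated genes of auxin synthesis and transport, 7 (30.4%) were listed and none was called in leaf alone. TAA1, YUC8 and YUC3, enzymes that turn tryptophan into auxin, had 2.07-fold (1.05 to 4.39), 2.6-fold (1.33 to 5.53) and 2.56-fold in the authors' deposited table (1.17 to 6.01). The TAA1 and YUC3 regions were 150 bp long, and none of these enzymes had a listed H3K4me3 region. The kinase genes WAG2 and PID2, whose family acts in auxin transport, had 86.6 and 19 tags (4.56-fold, 2.8 to 7.87) and 42 and 9 tags (4.67-fold, 2.32 to 10.8) in the authors' deposited table. NPY4, which acts with such kinases in organ formation, had 34.7 and 3 tags and 11.56-fold (3.77 to 58.7) in the authors' deposited table. AUX1, an auxin importer gene, was acetylated and not listed.

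Of 42 acetylated GH3, Aux/IAA and ARF genes, 6 (14.3%) were listed, with a median of 6.96-fold in the authors' deposited table. Besides GH3.3 they included GH3.1 with 23.7 and 1.5 tags (15.83-fold, 3.37 to 225) and BRU6 (GH3.2) with 48.2 and 7.5 tags (6.43-fold in the authors' deposited table, 3.02 to 16). The repressor gene IAA30 had 44.9 and 6 tags and 7.49-fold (3.22 to 21.0) in the authors' deposited table. MP, the auxin response factor that patterns the embryo and vasculature, had 49.7 and 14 tags and 3.55-fold (1.98 to 6.83) in the authors' deposited table. Small auxin-up RNA (SAUR) genes went both ways: of 29 acetylated members 3 were listed, at 2.37-fold to 3.96-fold in the authors' deposited table, and 4 were called in leaf alone. SAUR genes lie in clusters of similar sequence, and reads may be split among them, which leaves single members uncertain.

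Cytokinin, cell cycle and DNA replication genes were listed in small numbers. Of 38 acetylated cytokinin genes 4 were listed (10.5%) and 3 were called in leaf alone (7.89%). AHP1, a phosphotransfer protein of cytokinin signalling, had 39.8 and 5 tags and 7.96-fold in the authors' deposited table (3.18 to 25.3). The histidine kinase gene HK5 had 57.3 and 9 tags and 6.37-fold (3.17 to 14.4) in the authors' deposited table. In leaf alone were LOG1, which makes active cytokinin, the cytokinin oxidase gene CKX4 and the response regulator gene ARR7. Of 38 acetylated cell cycle genes 3 were listed (7.89%), namely CYCA2;4, E2F3 and CYCD3;1, at 3.37, 2.25 and 2.1-fold in the authors' deposited table. Of 14 DNA replication genes CDT1A (3.37-fold) and PCNA2 (2.14-fold) were listed in the authors' deposited table, while MCM3, POLA2 and MCM8 were called in leaf alone. The listed share of DNA replication genes was 14.3% and the leaf-alone share 21.4%. At MCM3 and POLA2 the counted window lay outside the gene, within 500 bp.

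Transcription factor families had members listed in each case, and their shares were not tested against each other. WRKY genes, many of which act in defence and senescence, had 11 of 39 listed (28.2%), with a median of 3.13-fold in the authors' deposited table, and WRKY51 alone was called in leaf alone. WRKY75 had 95.3 scaled callus and 10 leaf tags and 9.53-fold (5.0 to 20.3) in the authors' deposited table. WRKY48 had the highest score of all listed genes whose region was called in both, with 104.4 and 46.5 tags and 2.25-fold (1.6 to 3.2) in the authors' deposited table. WRKY23, an auxin-responsive gene of root development, had 59.5 and 19 tags and 3.13-fold (1.87 to 5.44) in the authors' deposited table. LBD genes had 5 of 17 listed, among them LBD40 above, LBD31 and LBD4, and LBD32, LBD22 and LBD21 were called in leaf alone. In the bHLH list 6 of 17 were listed, at 2.13-fold to 4.22-fold in the authors' deposited table. A further 4 were in leaf alone: BEE2, BEE3 and HBI1, which promote growth under brassinosteroid, and bHLH071.

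NAC genes had 7 of 39 listed (17.9%), led by NAC084 with 27.4 and 3 tags and 9.13-fold (2.94 to 46.8) in the authors' deposited table. ANAC087, which takes part in root cap cell death, had 109.9 and 28 tags and 3.93-fold (2.6 to 6.09) in the authors' deposited table. MYB genes had 7 of 46 listed (15.2%), and in the authors' deposited table MYB78 (30.3 and 5.5 tags) stood at 5.51-fold (2.23 to 16.6), ahead of MYB112 (51.5 and 12.5 tags) at 4.12-fold (2.26 to 8.28). Of 46 HD-ZIP and related homeobox genes 6 were listed, including HB20 (5.25-fold) and the adaxial fate gene PHB (2.56-fold) in the authors' deposited table. Another 5 of these were called in leaf alone, and ATML1, PDF2 and HDG11 among them act in the epidermis.

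Secreted peptide genes had 12 of 44 listed (27.3%), with a median of 3.15-fold in the authors' deposited table, and 4 called in leaf alone. RGF3, a root meristem growth factor, rested on 27.4 scaled callus tags and 1 leaf tag in a region of 150 bp in the authors' deposited table, 27.39-fold with a lower bound of 4.69. The CLE peptide genes CLE12 and CLE11 had 51.1 and 7.5 tags (6.82-fold, 3.21 to 16.9) and 28.5 and 5.5 tags (5.18-fold, 2.11 to 15.8) in the authors' deposited table. CLE44, whose peptide keeps vascular stem cells undifferentiated, had 62.5 and 31 tags and 2.01-fold (1.33 to 3.16) in the authors' deposited table. STOMAGEN, whose peptide promotes stomata, was called in leaf alone. Peptide receptor genes had 2 of 22 listed, SKM1 (AT2G25790, 3.43-fold) and CRN (2.32-fold), in the authors' deposited table.

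Transport and metabolism genes were listed in several families. Amino acid export genes of the UMAMIT and GDU families with amino acid importers had 8 of 34 listed (23.5%), with a median of 4.56-fold in the authors' deposited table. A further 4 were called in leaf alone (11.8%), namely CAT5, UMAMIT36, UMAMIT47 and UMAMIT46. Of the listed genes 4 were glutamine dumpers: GDU1, GDU5, GDU4 and GDU3 had 8.34-fold (3.61 to 23.3), 8.2-fold (3.19 to 28.7), 6.26-fold (2.86 to 16.2) and 2.87-fold (1.77 to 4.91) in the authors' deposited table. UMAMIT29 had 23.7 scaled callus tags and 0.5 leaf tags in a region of 150 bp in the authors' deposited table, 47.48-fold with a lower bound of 4.68. Of 60 ABC transporter genes 8 were listed (13.3%), among them ABCB19, an auxin exporter gene, with 48.9 and 14 tags and 3.5-fold (1.95 to 6.73) in the authors' deposited table. ABCG14, which moves cytokinin to the shoot, had 24.5 and 12 tags in the authors' deposited table (2.04-fold, 1.05 to 4.39). Cytochrome P450 genes had 12 of 98 listed (12.2%) and 7 called in leaf alone. The GST genes GSTU1 and GSTU2 lie side by side under the same region and share its value, 2.48-fold (1.36 to 4.92), in the authors' deposited table.

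Nutrient genes were listed in part and called in leaf alone in part. NAS1 and NAS3, nicotianamine synthase genes of metal transport, had 2.97-fold (1.7 to 5.49) and 6.14-fold (2.43 to 19.9) in the authors' deposited table. HMA4, which loads zinc into the xylem, had 49.7 and 9.5 tags and 5.23-fold (2.64 to 11.6) in the authors' deposited table. NRT1.5, which loads nitrate into the xylem, had 43.5 and 10 tags and 4.35-fold in the authors' deposited table (2.23 to 9.6). The nitrate reductase gene NIA1 had 48.9 and 15 tags and 3.26-fold (1.84 to 6.15) in the authors' deposited table. FRO7, a chloroplast iron reductase gene, and PHT2;1, a plastid phosphate transporter gene, had 2.22-fold (1.36 to 3.78) and 2.58-fold (1.58 to 4.38), also from the authors' deposited table. The iron reductase genes FRO2 and FRO1 and the metal pump gene HMA3 were called in leaf alone (8.82% of the iron and zinc genes). In all, 5 of 34 iron and zinc genes (14.7%) and 6 of 40 nitrate, phosphate and sulfate genes (15.0%) were listed.

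Carbon fixation genes had the largest leaf-alone share among the 55 lists. Of 17 acetylated carbon fixation genes none was listed and 5 (29.4%) were called in leaf alone, beside 4.4% of all genes. They were HCEF1, a fructose bisphosphatase gene, GAPB and GAPA-2 of the Calvin cycle dehydrogenase, the aldolase gene FBA2 and the Rubisco small subunit gene RBCS1B. Their regions were from 306 to 495 bp long. Of 19 photosystem and electron transport genes none was listed and 3 were called in leaf alone (15.8%): the plastocyanin gene PETE1, PSAO and PSBQA. Of 13 light-harvesting genes LHCA2 and CAB1 were called in leaf alone, and LHB1B2 was listed as higher in callus, with 62.5 scaled callus and 29 leaf tags and 2.15-fold (1.41 to 3.42) in the authors' deposited table. CAB1, LHB1B2 and RBCS1B belong to gene clusters of very similar sequence, which leaves the assignment of their reads uncertain. Most photosynthesis genes, such as RCA, PRK, PSBO1 and LHCB5, kept a region called in both libraries.

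Genes of pigment synthesis and light signalling had 4 of 23 called in leaf alone (17.4%). PIF7, a phytochrome-interacting factor of shade growth, had the highest score of all genes called in leaf alone, on a region of 1399 bp at chr5:24639176-24640575. CHLI2, GUN4 and PORB act in chlorophyll synthesis. HY5, which promotes light responses, was listed as higher in callus, with 74.5 and 26 tags and 2.87-fold (1.85 to 4.59) in the authors' deposited table. Of 43 leaf growth and polarity genes 5 (11.6%) were called in leaf alone, 3 of them growth-regulating factors: GRF4, GRF5 and GRF6. The others were YAB5, which marks the lower leaf side, and SPL8.

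After PIF7, the genes called in leaf alone with the highest scores were AT1G66940, ELP, PAL1, AT4G18250, IGMT4, ACD6, PETE1, FUM2 and BZIP61. Their regions ran from 801 to 2058 bp, far above the median of 231 bp for this class. PAL1 starts the phenylpropanoid pathway, in which none of 17 acetylated genes was listed as higher in callus. IGMT4 methylates indole glucosinolates, ACD6 promotes salicylic acid defence, and FUM2 is the cytosolic fumarase that lets leaves store fumarate. Defence genes had 5 of 28 called in leaf alone (17.9%), including EDS16 and PBS3 of salicylic acid synthesis, and 3 listed, led by OSM34 with 35.1 and 1.5 tags and 23.37-fold (5.19 to 333) in the authors' deposited table. Of 24 cysteine-rich receptor kinase genes CRK5, CRK12, CRK33 and CRK28 were called in leaf alone (16.7%), and CRK23 was listed. Wax and cuticle genes with epidermal regulators had 5 of 28 in leaf alone (17.9%).

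**Figure D4:**
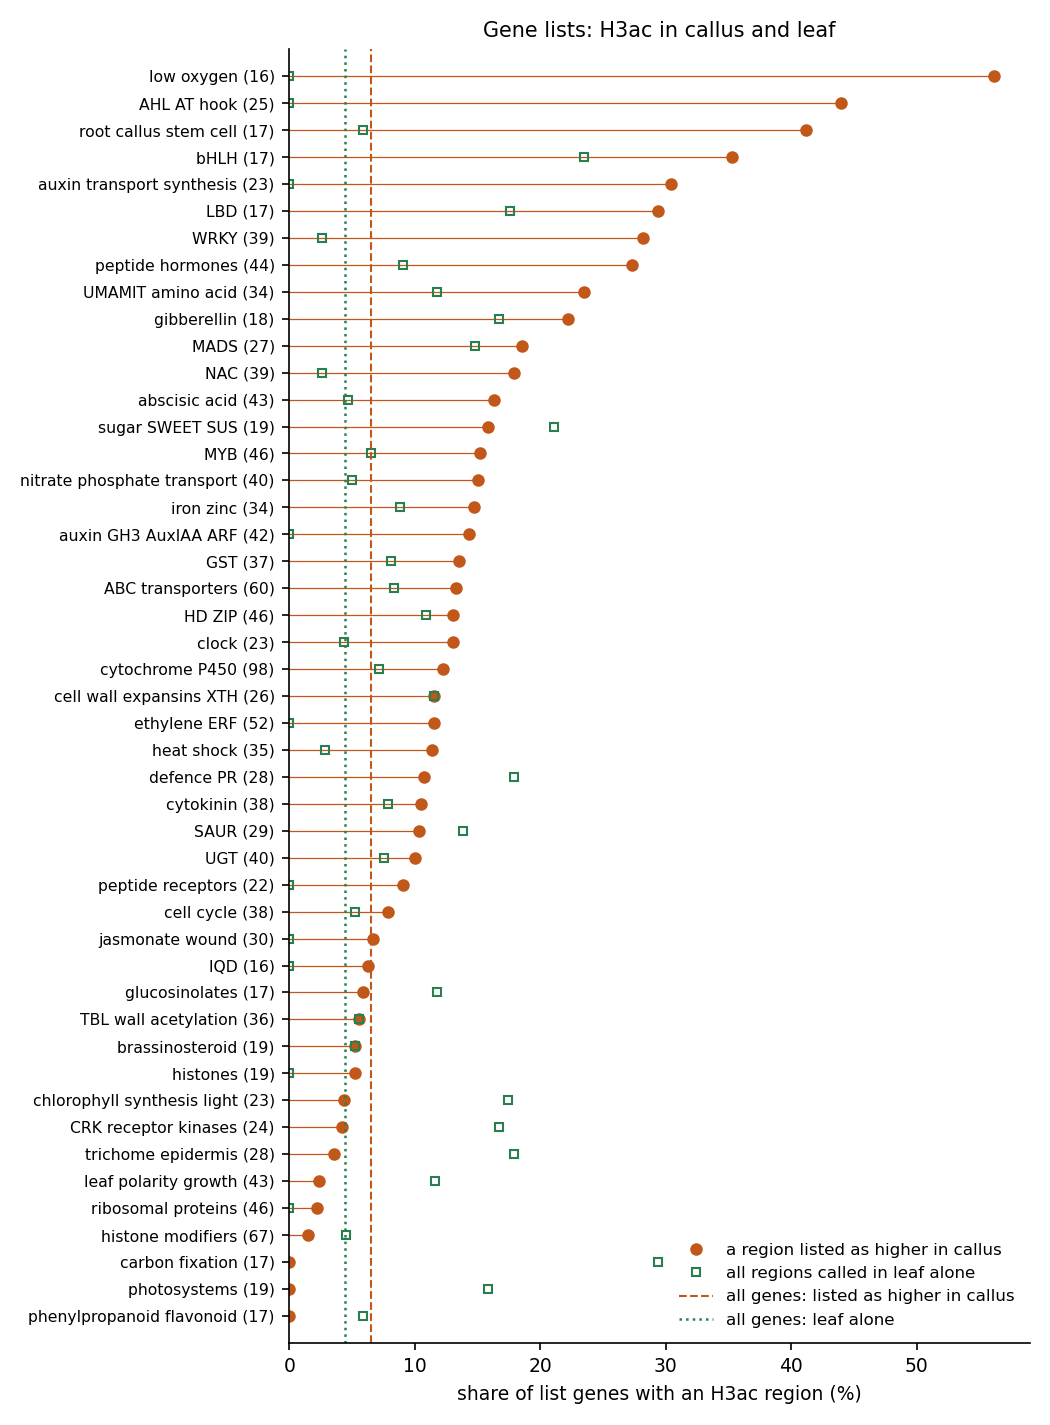
Share of acetylated genes (horizontal axis, percent) of each list with 15 or more such genes (number in brackets) that were listed as higher in callus (filled circles) or had all regions called in leaf alone (open squares), with dashed and dotted lines at the shares over all genes, 6.51% and 4.4%. Low-oxygen, AT-hook and stem cell lists stand at the top, and carbon fixation and photosystem lists have no circle above 0.

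Ribosomal and histone-modifying genes had listed shares below that of all genes. Ribosomal protein genes had 1 of 46 listed (2.17%) and none in leaf alone. Of 67 acetylated genes for histone-modifying enzymes, which include the acetyltransferases and deacetylases that set this mark, 1 was listed (1.49%), SDG4, with 28.9 and 13.5 tags in the authors' deposited table (2.14-fold, 1.14 to 4.36). The acetyltransferase genes HAC2 and HAC4 were called in leaf alone, on regions of 240 and 150 bp. At SDG4 and HAC2 the counted window lay outside the gene, within 500 bp. Of 19 histone genes HTA8, a histone H2A.Z gene, was listed, with 23 and 2.5 tags and 9.2-fold (2.59 to 57.2) in the authors' deposited table. Jasmonate and wound genes had 2 of 30 listed and brassinosteroid genes 1 of 19. Clock genes had 3 of 23 listed (13%): PRR9 with 58.4 and 11.5 tags and 5.08-fold (2.72 to 10.4), CCA1 with 2.01-fold and GI with 2.0-fold in the authors' deposited table. The hour of harvest is not given in the sources used here, so its part in these values was not tested.

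A call in leaf needs leaf reads, and the fold divides by leaf tags, so low folds there are partly built in. Within that limit, a listed gain at a region already called in leaf was rare and of modest size. The 10 genes with such a region and a fold of 4 or more included AHL8 (AT5G46640) with 83.3 and 16 tags and 5.2-fold (3.07 to 9.41) in the authors' deposited table. ACO1, which makes ethylene, had 43.5 and 8.5 tags and 5.11-fold (2.5 to 12.1) in the authors' deposited table. LRP1, a lateral root primordium gene, had 128.9 and 25.5 tags and 5.06-fold in the authors' deposited table (3.32 to 7.97). The remaining genes were AT1G53860, TBP1, WRKY60, PCO2, GOX3, MYB112 and LNK1, a clock coactivator gene (AT5G64170). TBP1, which binds telomeric repeats, had 49.7 and 11 tags and 4.52-fold (2.37 to 9.47) in the authors' deposited table, within a region of 3726 bp. Its count reads the central window of that region alone.

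Genes with both a shared and a listed callus-alone region show a gain beside an existing domain. LRX2, a leucine-rich repeat extensin of the root hair cell wall, had 62.8 and 8 tags and 7.85-fold (3.81 to 18.8) over 1088 bp in the authors' deposited table. The autophagy gene ATG2 had 29.9 and 4 tags and 7.49-fold (2.71 to 28.8) at a region of 150 bp in the authors' deposited table. GDU4 and CYP94B3, both named above, belong here too. In the authors' deposited table AT5G13920 had the largest fold of the group, with 28.1 and 2.5 tags and 11.25-fold (3.22 to 69.5).

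The genes with the highest scores overall were not listed as higher in callus. The 10 highest among genes with shared regions were AT4G18670, ARF2, AT3G13440, AT5G05140, Mik, MAPKKK13, AT1G69910, AT4G20300, AT5G01830 and MYC2. AT5G01830 carries the symbol SAUR21 in the gene table, and it is not read here as a small auxin-up RNA gene. ARF2 is a repressor of auxin responses and MYC2 the master regulator of jasmonate responses. Their regions spanned 2089 to 3631 bp, and none was listed. None of these 10 values carries tags in the authors' deposited table, so a smaller difference, or an excess in leaf, could not be seen.

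H3K4me3, measured in the same tissues with its own libraries, was used as a second readout at the H3ac regions. An H3K4me3 region overlapped 95% (94.7 to 95.4) of the shared unlisted H3ac regions and 93.1% (88.3 to 96.4) of the shared listed ones. It overlapped 48.4% (45.7 to 51.1) of the listed callus-alone, 42.1% (39.6 to 44.7) of the unlisted callus-alone and 51.4% (49.0 to 53.9) of the leaf-alone regions. Many of these H3K4me3 regions did not share the class of the H3ac region. Of the 845 leaf-alone H3ac regions with H3K4me3, 545 overlapped an H3K4me3 region called in both libraries and 281 one called in leaf alone. Over all H3K4me3 regions 7.35% were listed as higher in callus and 4.77% were called in leaf alone. A listed H3K4me3 region lay at 32.8% (30.3 to 35.4) of the listed callus-alone H3ac regions, against 7.59% (6.3 to 9.05) of the unlisted ones and 0.609% (0.292 to 1.12) of the leaf-alone ones. The callus H3K4me3 library was 1.016 times as deep as its leaf counterpart. The reverse held for leaf: H3K4me3 called in leaf alone lay at 17.1% (15.3 to 19) of the leaf-alone H3ac regions and at 0.0732% (0.00185 to 0.407) of the listed callus-alone ones. All libraries come from the same pair of tissues, and whether the marks came from the same chromatin preparation is not given in the sources used here.

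**Figure D5:**
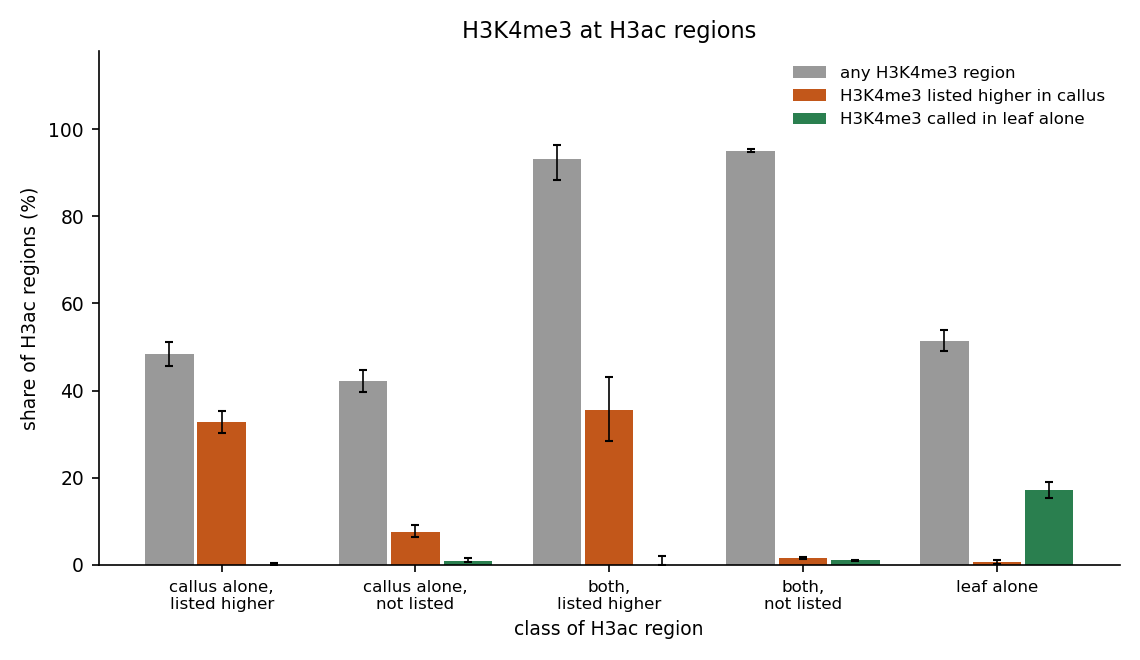
Share of H3ac regions of each class (vertical axis, percent) that overlap any H3K4me3 region (grey), one listed as higher in callus (orange) or one called in leaf alone (green), with exact 95% binomial intervals over regions. Grey bars are near 95% for shared classes and between 42.1% and 51.4% for the others, and the tallest green bar, 17.1%, belongs to leaf-alone regions.

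The size of the acetylation difference and the place of the region went with the H3K4me3 readout. Of the 374 H3ac regions at 4-fold or more 54.0% overlapped a listed H3K4me3 region, against 26.4% of those under 4-fold. Listed H3ac regions in a gene body overlapped some H3K4me3 region in 77.4% of cases, and those far from genes in 7.89%. Size and place were themselves linked. Of listed regions, 27.6% in a gene body, 15.9% within 500 bp and 18.9% of far ones reached 4-fold. Their separate parts were not tested. Among genes, 489 were listed for both marks, 45.0% of the 1087 H3ac genes and 38.6% of the 1267 H3K4me3 genes. Leaf-alone genes of both marks numbered 212, 28.8% of the 735 for H3ac and 30.8% of the 689 for H3K4me3. As percent of all genes with an H3K4me3 region, 7.19% were listed and 3.91% called in leaf alone.

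Opposite directions were few, and they were read by gene, so the regions of the marks need not overlap. By region, H3K4me3 called in leaf alone overlapped 1 of 1366 listed callus-alone H3ac regions and 0 of 174 shared listed ones. A listed H3K4me3 region overlapped 10 of 1643 leaf-alone H3ac regions. In 6 of the 1087 genes with H3ac listed as higher in callus (0.552%), H3K4me3 was called in leaf alone: MYB62, ALF5, BBX30, CRK23, BRS1 and CHR1. CHR1 is DDM1, the chromatin remodeller that keeps DNA methylated, and had 30.7 and 14 tags and 2.19-fold (1.17 to 4.34) in the authors' deposited table. In 15 of the 735 genes with H3ac called in leaf alone (2.04%), H3K4me3 was listed as higher in callus. Among them were the replication gene MCM3 and BAS1, which inactivates brassinosteroids. BAM6, a beta-amylase gene, had 17.18-fold more H3K4me3 in callus in the authors' deposited table, with an H3ac region of 548 bp called in leaf alone. No H3K4me3 region was found at 135 of the listed H3ac genes (12.4%) and at 156 of the leaf-alone H3ac genes (21.2%). The same share over all genes with an H3ac region is not given here. Examples among the 135 are ASL5 (7.16-fold), EXLA3 (6.35-fold) and BHLH92 (4.22-fold) in the authors' deposited table.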

How the data were processed

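Chromatin immunoprecipitation libraries of H3ac and H3K4me3 from callus and leaf, 4 in all with 1 per tissue and mark, were used as the authors deposited them. Reads were handled with Bowtie2 2.3.4.3, SAMtools 1.11 and HOMER 4.10.4 on the TAIR10 genome, per the submitters' processing notes. Regions of the tissues were merged with HOMER, per the file headers, and carry a score and the names of the libraries in which the authors called them. A second table, per the file headers a HOMER comparison of callus with leaf, gives the tags (a coverage signal scaled to the leaf library), the fold (a ratio of these tags) and a Poisson p-value for regions at 2-fold or more and a p-value of at most 0.01. The deposited p-value compares reads of 2 libraries, not conditions, and is not printed. No further setting is stated in the sources used here.

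Regions were given to protein-coding genes where the central, counted window met the gene body or lay within 500 bp of it. Gene names and positions came from the RefSeq TAIR10.1 table. As a check of the coordinates, 92.9% of shared regions met a gene body, against 68.4% to 79.9% after a shift of 500 to 4000 bp. Where a gene had several regions, the largest fold is given. Intervals of folds used both tag numbers, and intervals of shares are exact binomial over regions, which are not replicates. Scripts were tested on simulated data. Python 3.11.15, pandas 2.3.3, numpy 2.4.6, scipy 1.17.1 and matplotlib 3.10.9 were used.

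The regions, gene lists and rules were chosen with earlier results of these data known. The 55 lists match gene symbols, and 116 genes sharing only a symbol were removed after values were seen. The naming rule took the 20 largest folds on at least 36.2 callus tags, up to 6 listed and 6 leaf-alone genes of each list, and the 10 highest scores among leaf-alone genes, listed genes called in both, and shared genes. Outside this rule, and with values already seen, the text also names further members of the low-oxygen, AT-hook, stem cell, auxin, WRKY, peptide and transporter lists, the 4-fold genes called in both, genes beside shared or far regions, and genes with opposite marks. Promoter motifs and position along genes were planned but not analysed here, since the gene table has neither sequence nor strand. The values of 1 listed auxin gene are not reported here.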

Additional observations from a re-analysis of the deposited data

Results flagged for a closer look

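Outside the nuclear comparison, 77 regions of the H3ac libraries lay on the mitochondrial sequence, all called in callus alone and all listed as higher in callus. Their median in the authors' deposited table was 33.6 scaled callus tags against 6.5 leaf tags, and 5.17-fold, with a range of 2.61 to 22.64-fold. The plastid sequence had 2 regions, both called in the 2 tissues. These regions enter no count of the report except the 38828 merged regions of the series. The mitochondrial median fold was above the 2.87-fold of the nuclear listed regions. Whether the mitochondrial regions reflect acetylated H3 was not tested. No input library was used, so the part of background in the listed regions, nuclear ones included, was not tested.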

How the results depend on the processing

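No paired analysis was possible because each group is 1 library and the labels give no replicate numbers, and for the same reason no replicate could be left out. With regions under the median score left out, 149 callus-alone, 72 leaf-alone and 9872 shared regions remained, and 64 leaf-alone genes. At 4-fold or more, 374 regions and 285 genes were listed, and with a lower bound above 2, 381 regions and 305 genes. Taking 0.5 tags as 1 read put the lower bound above 2 in 646 regions. When at least 0.5 of the H3ac region had to be covered, H3K4me3 overlapped 43.9% of the listed callus-alone, 48.3% of the leaf-alone, 85.1% of the shared listed and 93.3% of the shared unlisted regions. Counting regions within 500 bp of a region called in the other library as shared, other gene windows and at least 5 leaf tags kept counts within 1.5 times. The 4-fold share of a list can only equal its listed share or be lower, and over all genes it fell from 6.51% to 1.71%. Of the 55 lists, 36 had a listed share at 4-fold outside the exact 95% interval of the share given, and none did with the whole region. With the whole region the brassinosteroid share nevertheless went from 5.26% to 10% and that of wall acetylation (TBL) genes from 5.56% to 10.5%, both past the 7.03% of all genes. Few leaf tags limit every fold, total depth is unknown, and regions that were not listed have no tags.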

Other observations

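Other gene lists held values not yet described. MADS genes went both ways, with 5 of 27 acetylated members listed as higher in callus and 4 called in leaf alone. AGL21 and AGL44 (ANR1), which act in lateral root growth, had 28.5 and 4.5 tags (6.33-fold, 2.39 to 22.2) and 64.3 and 14.5 tags (4.43-fold, 2.53 to 8.34) in the authors' deposited table. FLC, the repressor of flowering, and AGL8 (FRUITFULL) were called in leaf alone. All 3 listed sugar genes were sucrose synthases, the third being SUS3 with 64.3 and 11.5 tags and 5.59-fold (3.01 to 11.4) in the authors' deposited table, while the carrier genes STP14, STP11, SWEET16 and SFP2 were called in leaf alone.

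Abscisic acid genes had 7 of 43 listed, none at 4-fold. NCED5, of abscisic acid synthesis, had the most tags of them, 148.6 against 60.5 in leaf, and 2.46-fold (1.83 to 3.32) in the authors' deposited table. Gibberellin genes had 4 of 18 listed and 3 in leaf alone. GA3, an early synthesis enzyme, had 48.2 and 12.5 tags and 3.86-fold (2.09 to 7.73) in the authors' deposited table. Of ethylene genes 6 of 52 were listed and none was called in leaf alone. The shoot and embryo list had 3 of 10 listed, among them KNAT6 with 58.8 and 17 tags and 3.46-fold (2.05 to 6.26) in the authors' deposited table.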
